A study of Rattus norvegicus with 35 samples.

Results

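The microRNAs (miRNAs) miR-103-3p and miR-107-3p were followed in rat liver after oral ketoconazole, an azole antifungal drug that can cause liver injury. They are 2 of the 763 miRNA rows of the count table, chosen by name, as the products of hairpins that lie in introns of the pantothenate kinase (Pank) genes. The pair was selected on earlier results from these same libraries, so their levels and differences are given as a description, with no test. Male Sprague-Dawley rats, 6 weeks old, received ketoconazole by mouth at 10 mg/kg (low), 30 mg/kg (middle) or 100 mg/kg (high) per day for 3, 7 or 14 days. Controls received the vehicle, 0.5% methylcellulose, for the same times, and the livers were removed 24 h after dosing ended. This gave 12 groups of 3 libraries, except the day 14 control with 2, and 35 libraries in all. Whole liver was sequenced, so a level reflects every cell type in the organ.

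A miRNA is cut from the stem of a hairpin RNA and guides the silencing of messenger RNAs that pair with its seed, the bases near its 5′ end. Pantothenate kinases carry out the committed step of coenzyme A synthesis from vitamin B5, and the miR-103/107 hairpins are transcribed with them. The pair is known for lowering insulin sensitivity and for targeting caveolin-1, a protein of membrane pits that hold the insulin receptor. It is also known for repressing Dicer, the enzyme that cuts miRNA hairpins. miR-103 has also been used widely as a reference in miRNA PCR because its level varies little between tissues.

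The mature sequences, from RefSeq, are shown because the pair differs so little that the counts of the 2 rows depend on 1 base near the 3′ end. The seed, bases 2 to 8, is in capitals.

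miR-103-3p: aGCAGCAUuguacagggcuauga
miR-107-3p: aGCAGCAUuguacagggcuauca

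Both are 23 bases long and carry 1 difference, G22C, counted from the 5′ end of miR-103-3p, with 1 base after it. A read that ends before base 22 fits both. How such reads were assigned is not given in the sources used here, so the split between the rows is uncertain and their sum is given as well.

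The hairpins are shown to place the pair in the Pank genes, with the mature 3p product in capitals. Coordinates are those of the RefSeq assembly GRCr8, not of rn6, the build in the submitters' processing notes. Mir107 lies at chr1:241750418-241750504 on the minus strand within Pank1, Mir103a2 at chr3:138963227-138963312 on the plus strand within Pank2, and Mir103a1 at chr10:20748474-20748559 on the plus strand within Pank3. Each lies on the same strand as its host.

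Mir107: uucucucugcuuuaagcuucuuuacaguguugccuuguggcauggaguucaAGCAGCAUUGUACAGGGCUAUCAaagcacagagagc
Mir103a2: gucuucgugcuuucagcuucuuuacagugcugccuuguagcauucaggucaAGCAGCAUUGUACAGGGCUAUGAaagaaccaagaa
Mir103a1: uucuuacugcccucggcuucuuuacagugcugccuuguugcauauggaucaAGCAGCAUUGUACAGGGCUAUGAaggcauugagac

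Both miR-103 hairpins give the same mature 3p sequence, so 1 row holds the products of the Pank2 and Pank3 introns, while miR-107-3p comes from Pank1. The messenger RNAs of the host genes were not measured in these libraries.

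Other miRNAs carry the same 6 letters, AGCAGC, displaced by 1 base. In the RefSeq table of 693 mature rat miRNAs the run starts at base 1 in 2 of them (0.289%), the pair itself. It starts at base 2 in 6 (0.866%). miR-15a-5p and miR-424-5p, which belong to the seed group listed below, have no entry in that table, so their sequences are not shown. The 6 are shown because those of them that were tested fell at the middle and high doses (seed in capitals).

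miR-15b-5p: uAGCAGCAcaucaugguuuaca
miR-16-5p: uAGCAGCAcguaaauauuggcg
miR-195-5p: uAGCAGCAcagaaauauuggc
miR-322-5p: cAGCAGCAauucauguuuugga
miR-497-5p: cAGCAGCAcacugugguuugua
miR-503-5p: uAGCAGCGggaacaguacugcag

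The seed of the pair is GCAGCAU, and that of the others is AGCAGCA or, in miR-503-5p, AGCAGCG.

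The libraries held between 2665943 and 9665416 counts each (median 3758063). The tissue label fits the libraries' contents: miR-122-5p, the hepatocyte miRNA, had a mean of 32406 CPM (counts per 1000000). Of the muscle markers, miR-1-3p had 0 counts in every library, miR-208a-3p at most 1 and miR-133a-3p at most 89 (mean 5.96 CPM). Of the neuron markers, miR-124-3p had at most 1 count and miR-9a-5p at most 58 (mean 5.11 CPM). The first principal component of log2 CPM placed the control libraries and those given the low dose for 3 or 14 days, 14 in all, between -14.49 and -4.32, and the other 21 between 4.24 and 6.47. Control day 7 replicates 2 and 3 lay farthest out among the 14. The labels name no batch. Every difference of the middle or high dose, or of the low dose on day 7, from control therefore also crosses these 2 sets of libraries, and the dose cannot be told apart from whatever else separates them. Low dose days 3 and 14 against control, and high against middle dose, each stay within 1 set. The labels give replicate numbers but do not tell whether every sample came from its own animal, so a p-value here speaks only of how far these samples scatter.

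miR-103-3p was the 43rd most abundant miRNA by mean CPM and miR-107-3p the 66th. CPM refers to the library size after scaling by edgeR's trimmed mean of M-values (TMM). Counts per library were 3867 to 14624 for miR-103-3p and 1577 to 5946 for miR-107-3p. The SD of log2 CPM within groups was 0.142 and 0.166. The means over all libraries were 1706 CPM, or 0.168% of all counts, and 695 CPM, or 0.0684%. In bulk liver fewer cells of a type and less RNA per cell cannot be told apart.

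miR-107-3p, the product of the Pank1 intron, was high in every library of the high dose. On day 3 the high dose libraries stood at 1038, 828 and 792 CPM, against 535, 625 and 566 in the controls. On day 7 they stood at 857, 813 and 967 CPM, against 618, 599 and 608. On day 14 they stood at 1024, 1078 and 1043 CPM, against 537 and 593. No high dose library fell into the range of the controls on any day: the lowest of the 9 was at 792 CPM and the highest of the 8 controls at 625. The control libraries lay close together across days, with a median of 596 CPM, while the high dose libraries had a median of 967. Over the 328 miRNAs that passed the filter on low counts, 85 (25.9%) likewise had ranges that did not overlap between these 9 and 8 libraries, in either direction.

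At the lower doses miR-107-3p was less separated. The middle dose libraries stood at 528, 699 and 533 CPM on day 3, at 495, 753 and 764 on day 7, and at 899, 670 and 731 on day 14. All 3 lay above both controls on day 14, when 44.5% of all miRNAs did not overlap between these groups, whereas on days 3 and 7 the libraries fell on either side of the control range. The low dose libraries stood at 592, 566 and 576 CPM on day 3, 586, 574 and 580 on day 7, and 519, 567 and 591 on day 14. These 9 lay within or just under the range of the 8 controls of all days. On day 7 all 3 lay below the controls of that day, at 618, 599 and 608 CPM. The fitted difference there was -0.07 ± 0.14 (log2 fold change ± SE), and 50.3% of all miRNAs did not overlap between these groups.

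In log2 terms, the fitted difference of miR-107-3p from control at the high dose was 0.62 ± 0.14 on day 3 (log2 fold change ± SE, 3 against 3 libraries), 0.53 ± 0.14 on day 7 and 0.89 ± 0.16 on day 14 (3 against 2). Averaged over days it was 0.68 ± 0.09, a 1.60-fold higher level. In the edgeR test over all miRNAs 62.8% passed an adjusted p of 0.05 in that average, a share that only describes these libraries here. The middle dose gave 0.03 ± 0.14, 0.14 ± 0.14 and 0.44 ± 0.16 on the 3 days and 0.20 ± 0.09 on average, and the low dose -0.03 ± 0.09 on average. The day 14 value of the middle dose was 0.23 with library size alone, 0.26 without control day 14 replicate 1 and 0.24 without middle dose day 14 replicate 1.

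miR-103-3p, the joint product of the Pank2 and Pank3 introns, varied less and overlapped between doses. On day 3 the high dose libraries stood at 2006, 1827 and 1694 CPM, against 1623, 1743 and 1462 in the controls. On day 7 they stood at 1869, 1851 and 1940 CPM, against 1699, 2140 and 2094. On day 14 they stood at 2229, 2137 and 2199 CPM, against 1570 and 1608. Only on day 14 did the high dose and control libraries not overlap, as for 59.1% of all miRNAs on that day. On day 7 all 3 high dose libraries lay below the control mean. Control replicates 2 and 3 of that day, the libraries that stood apart, were the highest controls of miR-103-3p.

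The middle dose libraries of miR-103-3p stood at 1290, 1631 and 1307 CPM on day 3, 1299, 1734 and 1811 on day 7, and 1830, 1488 and 1798 on day 14. The low dose libraries stood at 1748, 1443 and 1573 CPM on day 3, 1441, 1338 and 1405 on day 7, and 1742, 1517 and 1641 on day 14. The low dose on day 7 was below all 3 controls of its day, a day on which 50.3% of all miRNAs did not overlap between these groups, while on days 3 and 14 the low dose fell among or near the controls.

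**Figure D1:**
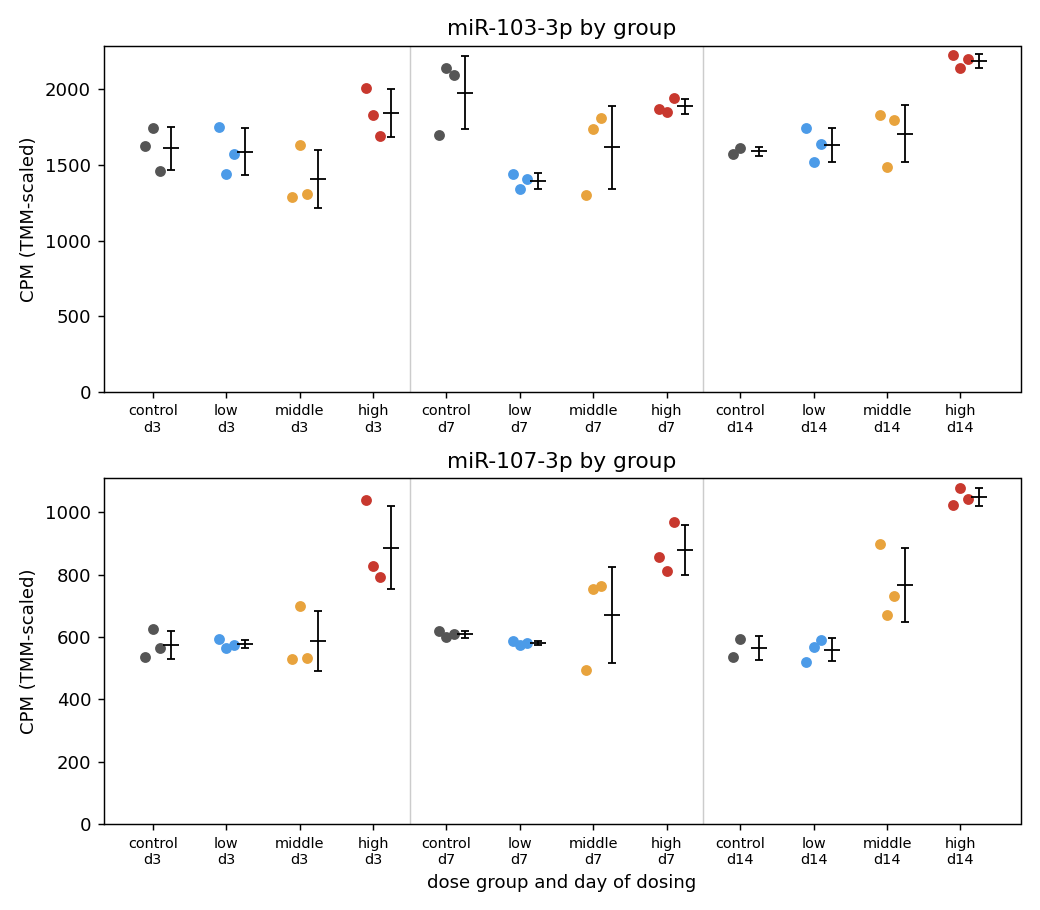
Level of miR-103-3p (top) and miR-107-3p (bottom) in each library, in TMM-scaled CPM on axes that start at 0, by dose group and day (d3, d7, d14). Points are libraries, and the bars beside them are the group mean ± SD. The 9 high dose libraries of miR-107-3p sit between 792 and 1078 CPM, above the 8 controls at 535 to 625, whereas those of miR-103-3p, at 1694 to 2229, overlap the controls at 1462 to 2140.

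The fitted difference of miR-103-3p from control at the high dose was 0.19 ± 0.13 on day 3, -0.07 ± 0.13 on day 7 and 0.46 ± 0.14 on day 14, and 0.20 ± 0.08 on average (9 against 8 libraries). With control day 7 replicate 1 as the only control of that day, the day 7 value was 0.12, and with no filter on low counts 0.15. The day 14 value was 0.28 with library size alone and 0.29 without control replicate 1. At the middle dose the values were -0.19 ± 0.13, -0.29 ± 0.13 and 0.10 ± 0.14, and -0.13 ± 0.08 on average, with -0.11 on day 14 and -0.27 on average under library size alone. The low dose on day 7 gave -0.50 ± 0.13, the lowest value for either miRNA, and -0.43 with the first control library alone. Without day 7, the low dose gave 0.01 ± 0.09 for miR-103-3p and -0.00 ± 0.11 for miR-107-3p (6 against 5 libraries).

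**Figure D2:**
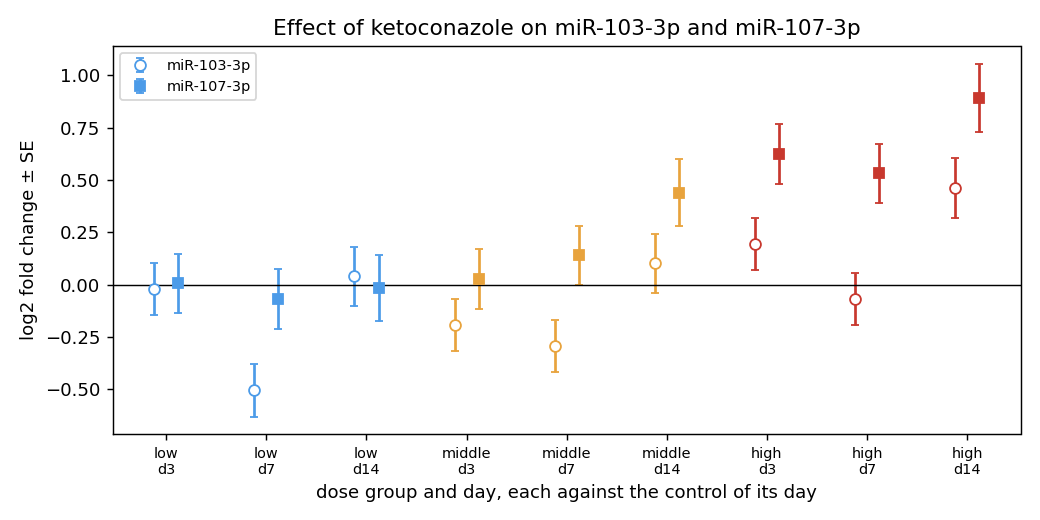
Difference of each dose from the control of its day, as edgeR log2 fold change ± SE, for miR-103-3p (open circles) and miR-107-3p (filled squares). Colours mark the dose (blue low, orange middle, red high). miR-107-3p lies above miR-103-3p in every group but the low dose on day 14, and reaches 0.89 at the high dose on day 14.

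Ordered by group mean, miR-103-3p ran from 2189 ± 47 CPM (SD, n = 3) in the high dose on day 14, through 1978 ± 242 in the day 7 control and 1887 ± 47 and 1842 ± 156 in the high dose on days 7 and 3, down to 1409 ± 192 in the middle dose on day 3 and 1394 ± 52 in the low dose on day 7. The other 6 groups lay between 1588 and 1706 CPM. None of the 11 gaps between neighbours in this order exceeded the larger SD of the 2 neighbours. For miR-107-3p the order was led by the high dose, at 1048 ± 28 CPM on day 14, 886 ± 133 on day 3 and 879 ± 80 on day 7, followed by the middle dose on day 14, at 767 ± 119, and day 7, at 671 ± 152. The remaining 7 groups lay between 559 and 608 CPM. Only the gap between the first group and the next, of 163 CPM, exceeded the larger SD. As shares of the unscaled totals the leading groups changed places: for miR-103-3p the day 7 control came first, at 2013 CPM, with the high dose at 1974 on day 3 and 1962 on day 14, and for miR-107-3p the high dose stood at 948 on day 3 and 939 on day 14.

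High and middle dose were compared within 1 set of libraries and without controls. On day 3, the 3 high dose libraries of miR-103-3p lay above the 3 of the middle dose, and this held on days 7 and 14 and for miR-107-3p on all 3 days. Of all 328 miRNAs, 13.4% were placed so on day 3, 4.27% on day 7, 9.45% on day 14 and 2.13% on each of the 3 days, and the pair was chosen with such values known. The difference averaged over days was 0.32 ± 0.07 for miR-103-3p and 0.48 ± 0.08 for miR-107-3p (9 against 9 libraries), a 1.25-fold and a 1.39-fold higher level. Pooled over days, the ranges of the 2 doses overlapped for both. On day 7 the high dose also stood above the low dose, by 0.44 ± 0.13 for miR-103-3p and 0.60 ± 0.14 for miR-107-3p.

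Summed to 1 row, the pair was higher at the high dose by 0.33 ± 0.08 on average. The sum does not depend on how reads that fit both were split, provided that each was counted once, which is not known. By day the sum gave 0.32 ± 0.13, 0.10 ± 0.13 and 0.59 ± 0.14. Its value was -0.04 ± 0.08 at the middle dose and -0.12 ± 0.08 at the low dose. High against middle dose gave 0.37 ± 0.07. The summed level had a median of 2259 CPM in the controls, 2329 in the middle and 2908 in the high dose libraries.

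The ratio of the 2 counts within a library needs no scaling, and it was lower at the higher doses. miR-103-3p exceeded miR-107-3p in each of the 35 libraries. The ratio stood at 3.03, 2.79 and 2.58 in the day 3 controls, at 2.75, 3.58 and 3.44 on day 7, and at 2.92 and 2.71 on day 14. At the high dose it stood at 1.93, 2.21 and 2.14 on day 3, 2.18, 2.28 and 2.01 on day 7, and 2.18, 1.98 and 2.11 on day 14. The highest ratio at the high dose, 2.28, was below the lowest control ratio, 2.58.

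The middle dose ran from 2.04 to 2.63, with a median of 2.37. Of its 9 libraries 1, day 7 replicate 1, reached into the control range, and 2, day 14 replicates 1 and 2 at 2.04 and 2.22, lay within the range of the high dose. At the low dose the ratio was 2.55 to 3.36 on days 3 and 14, among the controls, and 2.46, 2.33 and 2.42 on day 7, below every control. The ratio thus followed the 2 sets of libraries: 2.55 to 3.58 in the 14 and 1.93 to 2.63 in the 21. What separates the sets, and its part in the ratio, was not tested.

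**Figure D3:**
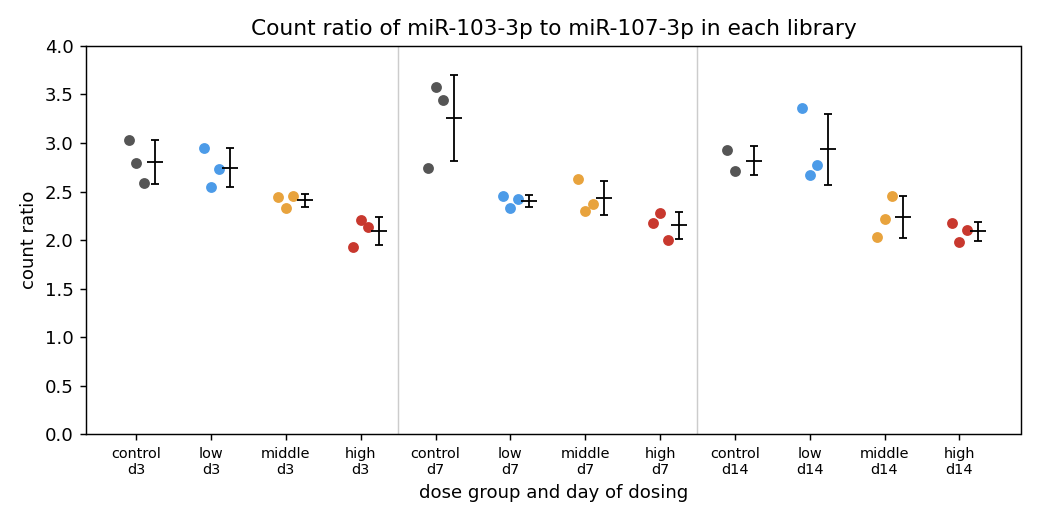
Ratio of the miR-103-3p count to the miR-107-3p count in each library, with no scaling, by dose group and day. Points are libraries and bars the group mean ± SD. Ratios of the high dose (1.93 to 2.28) sit below all controls (2.58 to 3.58), and the low dose lies low only on day 7.

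On the log2 scale the ratio at the high dose differed from control by -0.48 ± 0.06 on average. The values for days 3, 7 and 14 were -0.42 ± 0.09, -0.59 ± 0.09 and -0.43 ± 0.11. The pooled SD within groups was 0.116. With the first control library alone on day 7, the value of that day was -0.35. At the middle dose the average was -0.32 ± 0.06, and at the low dose it was -0.43 ± 0.09 on day 7 (-0.19 with the first control library alone) and 0.01 ± 0.07 over days 3 and 14. High against middle dose, within 1 set of libraries, gave -0.16 ± 0.05. The low dose libraries of day 7, set against those of the other days with no control involved, gave -0.24 ± 0.08. That last difference crosses both sets of libraries, so the day cannot be told apart from what separates them.

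The 2 members deviated together within groups. The Pearson correlation of their log2 CPM deviations from the group means was 0.73 over the 35 libraries, which share depth and scaling factor and may share reads that fit both.

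The other arms of the hairpins, the passenger strands on the 5p side, were nearly absent. miR-107-5p had 73 counts over all libraries, at most 9 in 1 library and above 0 in 27 of 35, equal to 0.0758% of the counts of miR-107-3p. Its counts summed to 5 over the 8 control, 16 over the low, 18 over the middle and 34 over the high dose libraries (9 each). miR-103-1-5p had 12 counts, never more than 1 in a library, and miR-103-2-5p had 0. None of the 3 rows passed the filter, so none was tested.

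The miR-15/16 seed group, whose AGCAGC run is displaced by 1 base, fell while miR-107-3p was high. These miRNAs are known to restrain the cell cycle. Of 8 listed miRNAs, 7 had a row and 6 passed the filter (miR-503-5p did not). In the high dose average 6 of 6 were lower and 0 higher in edgeR's quasi-likelihood F-test (p-values adjusted by Benjamini-Hochberg), where 31.4% of all 328 miRNAs were lower. The list was chosen with earlier results of these libraries known, so its direction is not independent evidence. Its median log2 fold change was -0.79, against -0.04 over all miRNAs.

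miR-16-5p, the most abundant of the group, ran from 5390 to 7067 CPM (median 5851) at the high dose and from 8743 to 19836 (median 11773) in the controls. No library overlapped. Its change was -1.04 ± 0.09 (adjusted p = 2.58e-11). miR-322-5p ran from 286 to 413 CPM at the high dose and from 567 to 708 in the controls, again apart, and changed by -0.86 ± 0.08 (adjusted p = 1.10e-10). miR-15a-5p, at -0.76 ± 0.09, and miR-497-5p, at -0.82 ± 0.10, also had ranges that did not overlap. Over all 328 miRNAs, 25.9% had ranges that did not overlap between the 9 high dose and 8 control libraries, in either direction. miR-15b-5p, at -0.63 ± 0.11, and miR-195-5p, at -0.41 ± 0.10, overlapped the controls. miR-195-5p was not called without day 7, at -0.30 (adjusted p = 0.0501).

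At the middle dose the same 6 were lower on average, where 29.9% of all miRNAs were lower, from -0.47 ± 0.10 for miR-195-5p (-0.28, not called, without day 7) to -0.98 ± 0.09 for miR-16-5p. At the low dose on day 7, with 18.6% of all miRNAs lower, 3 of 6 were lower: miR-15a-5p at -0.67 ± 0.15, miR-15b-5p at -0.96 ± 0.18 and miR-16-5p at -0.90 ± 0.16. miR-15a-5p was not called with the first control library of that day alone, at -0.48. On average over days, 1 of 6, miR-16-5p, was lower at the low dose (-0.27 ± 0.09, adjusted p = 0.0364), with 6.1% of all miRNAs lower, and without day 7 it stood at 0.05 and was not called.

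Within 1 set of libraries the group moved less. For the low dose over days 3 and 14 edgeR called 0 of 6, and 0% of all 328, with 0 of the 6 and 16 of the 328 at an unadjusted p under 0.05; DESeq2 also called 0 of the 328, with 15 at an unadjusted p under 0.05. High against middle dose called 2 of 6 lower, miR-322-5p at -0.31 ± 0.08 and miR-497-5p at -0.32 ± 0.10, where 9.45% of all miRNAs were lower, and 1 higher, miR-15b-5p at 0.30 ± 0.11 (adjusted p = 0.0483). There miR-497-5p was not called without day 7 or with no filter on low counts (-0.25 and -0.27), nor miR-322-5p with no filter (-0.26). The call of miR-15b-5p was lost without day 7 (0.27), with the stricter filter, with run 2 alone of the repeated libraries, and without any 1 of several libraries (0.28 to 0.32): control day 3 replicates 1 and 3, low dose day 3 replicate 3 and day 7 replicates 1 and 3, middle dose day 3 replicates 2 and 3, day 7 replicate 3 and day 14 replicate 3, and in the high dose replicate 3 of day 3, 1 of day 7, and 1 and 3 of day 14. The pair stood higher in that comparison, by 0.32 and 0.48.

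**Figure D4:**
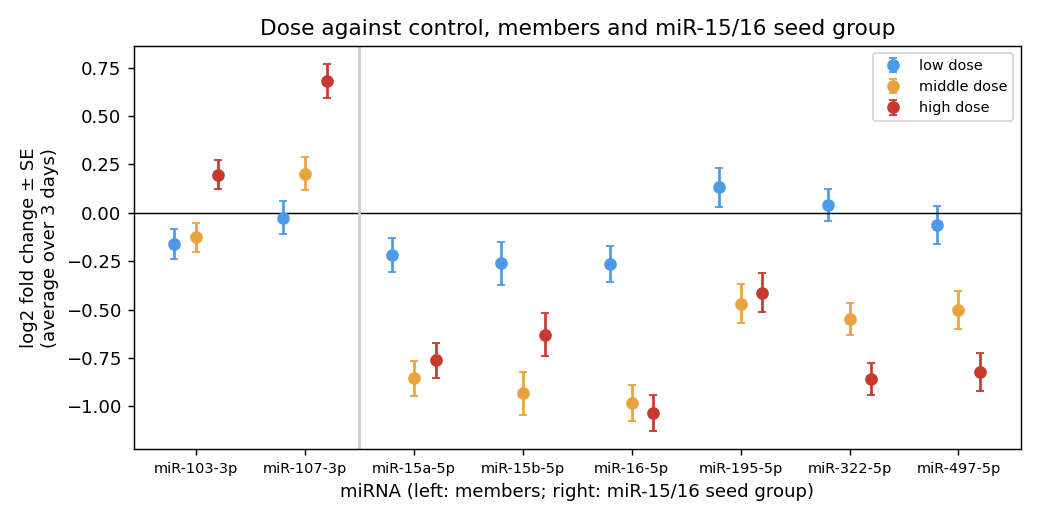
Difference of each dose from control averaged over the 3 days, as edgeR log2 fold change ± SE, for miR-103-3p and miR-107-3p (left of the grey line) and the 6 tested miRNAs of the miR-15/16 seed group (right). Middle and high dose values of the seed group lie between -1.04 and -0.41, while miR-107-3p stands at 0.20 and 0.68.

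The use of miR-103 as a reference can be set beside 13 other miRNAs in similar use. In the high dose average 6 of the 13 were higher, 7 lower and 0 not called, where 31.4% of all 328 miRNAs were higher and 31.4% lower. At the middle dose the counts were the same, where 61.9% of all miRNAs were called either way. There the call of miR-23a-3p was lost with no filter on low counts (-0.16) and with only the groups compared (-0.17). It was also lost without control day 3 replicate 3 (-0.16) or middle dose day 3 replicate 2 (-0.16). The largest changes at the high dose were those of miR-191a-5p at 2.51 ± 0.11, miR-423-3p at 2.32 ± 0.15, miR-423-5p at 1.98 ± 0.13 and miR-361-5p at 1.79 ± 0.15, all higher. The smallest were those of miR-93-5p at -0.21 ± 0.08 and miR-26a-5p at 0.23 ± 0.07. Both calls were lost without day 7, at -0.04 and 0.11, and that of miR-26a-5p also with library size alone (0.15), with the first day 7 control alone (0.08) and without control day 3 replicate 2 (0.17) or day 14 replicate 1 (0.16). That of miR-93-5p was also lost with no filter on low counts (-0.13).

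The SD of log2 CPM over the 35 libraries was 0.222 for miR-103-3p, the 31st lowest of the 242 miRNAs with a mean of at least 10 CPM, whose median SD was 0.361. Of the 13 reference miRNAs only miR-23a-3p, at 0.217, was lower, and let-7a-5p followed at 0.238. miR-107-3p, at 0.335, ranked 108th, and miR-16-5p, at 0.512, ranked 183rd. The SD was 1.34 for miR-191a-5p and 1.25 for miR-423-3p.

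Of 13 tested miRNAs linked to insulin and glucose, 5 were higher, 3 lower and 5 not called in the high dose average, a share of calls near the 62.8% over all miRNAs. The largest changes were those of miR-34a-5p, a target of p53, at 1.09 ± 0.19, miR-802-5p, which impairs hepatic insulin action, at 0.74 ± 0.16, miR-29b-3p, of the antifibrotic miR-29 family, at -0.57 ± 0.10, and miR-21-5p, tied to fibrosis, at -0.53 ± 0.11. The number higher fell to 3 without day 7, with the first day 7 control alone and without control day 14 replicate 1.

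Of the other miRNAs that lie in introns of metabolic genes, miR-378a-3p, from the gene of the mitochondrial regulator Ppargc1b, rose by 0.46 ± 0.07 at the high dose (adjusted p = 1.91e-06), from 33250 to 43581 CPM in the controls to 43779 to 59196. It also rose at the middle dose, by 0.31 ± 0.07, a call lost without control day 14 replicate 1 (0.17). The passenger miR-378a-5p stood at -0.12 ± 0.08 at the high dose and was not called, but passed with library size alone, at -0.20. At the middle dose it fell, at -0.25 ± 0.08. Both arms from the intron of Srebf2, the sterol regulator, were lower at the high dose, with miR-33-5p at -0.41 ± 0.10 and the 3p arm, miR-33-3p, at -0.49 ± 0.12. At the middle dose they stood at -0.60 ± 0.10 and -0.50 ± 0.12, both called. miR-33-5p was not called at the high dose without day 7, at -0.30.

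The miRNAs whose pattern was most like that of each member were named by the Pearson correlation of log2 CPM over the 12 group means, among the 241 others with a mean of at least 10 CPM. For miR-103-3p these were miR-101b-3p (0.87), miR-362-3p (0.86), miR-101a-3p (0.85), miR-532-5p (0.85) and miR-378b (0.83), and miR-107-3p came 9th at 0.76. For miR-107-3p they were miR-99a-3p (0.91), miR-378a-3p (0.89), miR-374-3p (0.89), miR-30a-5p (0.88) and miR-140-3p (0.86), and miR-103-3p came 21st. The group means share scaling and the 2 sets of libraries.

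Markers of the cell types of liver are given for the same comparison, in which 31.4% of all 328 miRNAs were higher and 31.4% lower. The summed level of 6 hepatocyte miRNAs ran from 226912 to 309919 CPM in the controls and from 239748 to 287535 at the high dose, with 2 of 6 higher and 4 lower. Both endothelial markers, the arms of miR-126a, were lower, and their sum ran from 28706 to 37855 CPM in the controls and 18909 to 22701 at the high dose, without overlap. The sum of 5 stellate and smooth muscle markers ran from 36371 to 49719 and from 45882 to 60490 CPM, with 2 higher and 2 lower.

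Of 5 white blood cell markers 3 were lower and 0 higher (1539 to 3127 CPM in the controls, 1805 to 2839 at the high dose). Of 4 red blood cell markers 1 was higher and 1 lower (1521 to 4148 and 2262 to 4623), and of 5 bile duct markers 1 was higher and 2 lower (940 to 1950 and 864 to 1638). Of the 2 neuronal markers miR-9a-5p was higher, the sum of both running from 1.63 to 4.17 CPM in the controls and 4.26 to 10.997 at the high dose. Of the 3 muscle markers 0 were called, with 1 tested. The part of these cell types in the levels of the pair was not tested.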

How the data were processed

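Small RNA libraries from rat liver (TruSeq Small RNA kits, per the labels' protocols) were deposited by the authors as 1 table of raw read counts per mature miRNA, with 763 rows and 37 count columns, and with no normalization. The genome build was rn6, per the submitters' processing notes. Not given in the sources used here are the aligner, the counting program, the miRNA release and the assignment of reads that fit several miRNAs. Each column was mapped to a sample by its name, and the 2 columns each of middle dose day 14 replicates 2 and 3, taken as repeat runs, were summed.

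Of the rows, 151 were at 0 in every library and 328 passed filterByExpr (minimum count 10, minimum total count 15). The fit used edgeR 4.0.16 under R 4.3.3, TMM scaling, a mean for each group and all 35 libraries (23 residual degrees of freedom), with the robust quasi-likelihood F-test and Benjamini-Hochberg adjustment over the 328 miRNAs (threshold 0.05). The SE is the absolute log2 fold change over the square root of F. log2 CPM has a prior count of 2. SEs of the log2 count ratio use its pooled SD within groups. Reads carry no stated molecular identifiers.

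The members, lists and comparisons were chosen with earlier results of these data known, and the members carry no test. Named were the members, their other arms, every tested miRNA of the seed and intronic lists, up to 4 with the largest called high dose change from the reference and insulin lists, the 2 smallest of the reference list, and the 5 most alike miRNAs. Replicates of a group differed beyond counting noise (chi-square per degree of freedom at least 34.8 over 34 pairs, against 5.74 and 8.09 between runs), so no library was counted as a duplicate. Each result other than the differences of a dose effect between days was recomputed. The alternatives were library size alone, the size factors of DESeq2 1.42.0, that tool itself and no filter. Further ones were a stricter filter, fewer groups in the fit, a replicate block, single runs, the pair summed and each library left out. Averages without day 7, and without control day 7 replicates 2 and 3, were added after the data were seen. The high dose average was tested on simulated counts of the 328 miRNAs, with 200 of them changed at the high dose, in equal numbers up and down. It recovered 81% of the 1.5-fold changes and 93% of the 2-fold ones, and called 2 of 128 unchanged miRNAs. The simulated counts were drawn independently and held no separate sets of libraries, so these rates do not cover what separates the sets. Sequences came from RefSeq (GRCr8), and figures were drawn with matplotlib 3.10.9.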

Additional observations from a re-analysis of the deposited data

Results flagged for a closer look

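The low dose differed from control to a different degree on day 7 than on the other days for 3 of the 6 tested miRNAs of the miR-15/16 seed group, in an edgeR test of the difference between days over all 328 miRNAs. The low dose effect on day 7 minus that on day 3 was -0.70 ± 0.21 for miR-15a-5p (log2, ± SE, adjusted p = 0.0110), -0.84 ± 0.26 for miR-15b-5p (adjusted p = 0.0121) and -0.88 ± 0.22 for miR-16-5p (adjusted p = 0.00215). Against day 14 it was -0.66 ± 0.22 for miR-15a-5p (adjusted p = 0.0252), -1.24 ± 0.28 for miR-15b-5p (adjusted p = 0.000875) and -1.03 ± 0.23 for miR-16-5p (adjusted p = 0.000955). The day 14 control has only 2 libraries. For miR-15b-5p they stood at 118 and 116 CPM, against control means of 193 on day 3 and 233 on day 7. Over all miRNAs the test called 106 of 328 against day 3 and 109 against day 14. From the intronic list, miR-33-5p differed between days 7 and 3, by -0.65 ± 0.24 (adjusted p = 0.0398). These differences cross both sets of libraries, so the day cannot be told apart from what separates the sets. They also involve control day 7 replicates 2 and 3, the libraries farthest out in their set, and were not recomputed without them. For miR-15b-5p the day 7 controls stood at 216, 286 and 197 CPM, so replicate 3 was the lowest of them. With replicate 1 as the only control of that day, the low dose on day 7 stood at -0.48 for miR-15a-5p (-0.67 with all controls) and -0.46 for miR-33-5p.

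miR-103-3p at the high dose lay above the control mean of the day in 3 of 3 libraries on days 3 and 14, and below it in 3 of 3 on day 7. The high dose effect on day 7 minus that on day 3 was -0.26, and that on day 14 minus day 7 was 0.53, on the log2 scale. These differences were not tested.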

How the results depend on the processing

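In the high dose average miR-107-3p kept its direction under every alternative run and reached 0.76 without day 7. miR-103-3p also kept its direction, and its lowest value was 0.12, with library size alone. The row of the pair summed, which holds the counts of both, gave 0.33. The log2 ratio stayed between -0.52 and -0.40. The pair summed gave -0.039 at the middle dose, and library size alone gave miR-103-3p -0.27 there. That scaling shifted the median of all miRNAs by -0.076 at the high and -0.147 at the middle dose, and leaving out control day 14 replicate 1 shifted it by -0.183 at the low dose on day 7, where miR-103-3p then stood at -0.70. Without day 7 the low dose average was 0.0099 for miR-103-3p and 0.012 for the log2 ratio, and miR-16-5p (0.053), miR-191a-5p (-0.082), miR-93-5p (0.016), miR-26a-5p (-0.024) and miR-186-5p (-0.018) reversed. The seed group's 1 lower call at the low dose became 3 with DESeq2 or its size factors, 2 with library size alone or the stricter filter, and 0 with only the groups compared, without day 7 or with the first day 7 control alone. Leaving out single libraries gave 0 to 3 lower and 0 to 1 higher. In high against middle dose, its 2 lower calls became 0 with no filter and 1 without day 7, and its 1 higher call became 0 with the stricter filter, run 2 alone, without day 7, and 0 to 1 when single libraries were left out. A replicate block left the seed group's counts at 6 lower at the high and middle doses, with 205 miRNAs called at the high dose against 206. The labels do not tell whether the replicate numbers pair the samples. Deviations of 51 same-numbered pairs had a median correlation of 0.0066 (lowest -0.32), and 9 of 35 libraries were closest to their own number. Causes of these shifts were not tested.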
